A study of Rattus norvegicus with 8 samples.

Results

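The genes described here are 10 components of the Notch pathway that were read in cultured rat oligodendrocyte precursor cells: the receptors Notch1 and Notch2, the ligands Jag1, Dll1 and Dll3, and the target or target-related genes Hes1, Hes5, Hes6, Hey1 and Nrarp. They were chosen by gene symbol out of 32662 rows of the expression table, with earlier results of these data known. Nrarp was selected on its value in the comparison described below, where its decrease ranked 5 among 11149 tested genes. Each of the 10 symbols stood on 1 row, and all 10 lay above the filter on low values (at least 1 FPKM in at least 4 samples). FPKM is a fragment count scaled to gene length and library size, so levels of different genes can be set side by side per length.

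Notch receptors are cleaved when a ligand on a neighbouring cell binds them, and the freed intracellular domain enters the nucleus, where it joins the DNA-binding protein RBPJ and a Mastermind coactivator to switch on target genes. The best known targets encode HES and HEY repressors of the basic helix-loop-helix class and Nrarp, a small ankyrin-repeat protein that binds the nuclear complex and limits its activity. In the oligodendrocyte lineage, signals through Notch1 are known for holding precursors in an undifferentiated state.

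Messenger RNA was sequenced from primary precursor cells of Sprague Dawley rats, prepared from the cerebral cortex of pups 1 to 2 days old. Cells that did not adhere in mixed glial cultures with 20% serum were collected and grown for 4 to 5 days on the growth factors PDGF and FGF (10 ng/ml of each) with 2% B27, 2 mM glutamine and 1% antibiotics, for both groups alike. The control group (n = 4) was kept under normal conditions and the other group (n = 4) was exposed for 6 h to oxygen glucose deprivation (OGD), which imitates ischaemia in a dish. The medium used during OGD is not described, and the labels leave unsaid whether replicates came from separate cultures, so p-values reflect only sample-to-sample spread, possibly of technical origin.

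Steps between low FPKM values gave relative depths of 0.816 to 1.18 over the 8 libraries, with control replicate 1 set to 1; absolute depth is unknown. Markers of the labelled cell type were abundant: 8 of 8 precursor markers were tested, and their summed level was 2241 to 2365 FPKM in control and 1474 to 1703 FPKM in OGD libraries, with 5 of 8 lower in OGD by limma and 0 higher. Of those 5, Gpr17 did not pass in 9 of 17 other ways of processing and Ptprz1 in 1 of 17 (quantile normalization). Of 11 microglial markers with a row, 10 were lower and 0 higher in OGD, and their sum was 201 to 329 FPKM in control and 64.9 to 119 FPKM. Of these 10, Cx3cr1, P2ry12 and Ptprc entered the test through their control libraries, which leaves 7 that did not. By the mean over all 8 libraries the most abundant of these lists were Olig1 (794 ± 41.4 against 357 ± 28.0 FPKM) and Ptprz1 (342 ± 42.8 against 271 ± 18.3), and C1qa (60.0 ± 14.8 against 19.3 ± 7.02) and C1qc (55.0 ± 13.4 against 17.3 ± 5.51). Of 5 tested astrocyte markers 2 were lower and 0 higher, of which Gfap entered the test through its control libraries, and of 6 neuronal markers 3 were lower and 1 higher (Snap25 not in 10 of 17 other ways of processing); their most abundant genes over all 8 libraries were Slc1a3 (63.4 against 60.1 FPKM) and S100b (11.8 against 6.67), and Dcx (46.1 against 41.2) and Tubb3 (30.2 against 53.0). The 6 endothelial and mural markers with a row summed to at most 0.365 FPKM in any library, and Cldn5 and Rgs5 were listed at 0 in all 8. The counts of lower and higher markers stand beside 26.8% lower and 22.7% higher over all tested genes by limma. Shifts in these marker lists lie beside every difference given below, and their part in those differences was not tested. In such bulk samples fewer cells of a type and less RNA per cell cannot be told apart.

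Sequence ahead of the genes is shown first, because the stretches searched differed in matches to the core letters of the RBPJ site. Of the 10 members, 9 had an entry in RefSeq's table of start regions (build GRCr8, another build than that of the expression data), and the 250 bases before the listed start were searched on both strands for TGGGAA, the core letters of the RBPJ site, and for ACGTG, the core of the site bound by hypoxia-inducible factors. TGGGAA stood in the windows of Hes1, Hes5 and Dll1, at 2 positions in each, and not in those of Notch1, Notch2, Jag1, Dll3, Hes6 and Nrarp. At least 1 match was held by 22.1% of 33469 windows of this length and 2 or more by 2.71%. Among the 9158 windows of tested genes the shares were 19.5% and 2.59%. ACGTG was found among members only for Nrarp, where it lies on both strands within the palindrome CACGTG. That palindrome was looked at after the match was seen. It is held by 5.59% of all windows and 8.29% of those of tested genes, against 16.6% and 22.3% for ACGTG. A window without a match says only that these letters are not in it.

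The windows of Hes1 (chr11:84213046-84213295, minus strand), Hes5 (chr5:170804327-170804510, plus strand), Dll1 (chr1:64993275-64993524, minus strand) and Nrarp (chr3:28390495-28390744, plus strand) are printed 5′ to 3′ along the gene, together with that of Lfng (chr12:19152952-19153168, minus strand), a pathway gene outside the 10 that was much lower in OGD. Bases inside the annotated gene were left out, which shortens the runs of Hes5 and Lfng. Capitals mark TGGGAA in either orientation and, for Nrarp and Lfng, ACGTG in either orientation; in Lfng a TGGGAA at -123 from the start overlaps the ACGTG match before it.
Hes1: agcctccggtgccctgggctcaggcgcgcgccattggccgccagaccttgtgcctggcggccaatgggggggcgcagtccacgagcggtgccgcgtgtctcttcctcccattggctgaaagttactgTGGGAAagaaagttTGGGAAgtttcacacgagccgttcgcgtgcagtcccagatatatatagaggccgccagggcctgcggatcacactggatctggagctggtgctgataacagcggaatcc
Hes5: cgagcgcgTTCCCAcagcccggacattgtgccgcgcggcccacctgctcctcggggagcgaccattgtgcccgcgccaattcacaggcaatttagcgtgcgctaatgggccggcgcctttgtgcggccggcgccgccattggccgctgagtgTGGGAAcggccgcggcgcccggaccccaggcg
Dll1: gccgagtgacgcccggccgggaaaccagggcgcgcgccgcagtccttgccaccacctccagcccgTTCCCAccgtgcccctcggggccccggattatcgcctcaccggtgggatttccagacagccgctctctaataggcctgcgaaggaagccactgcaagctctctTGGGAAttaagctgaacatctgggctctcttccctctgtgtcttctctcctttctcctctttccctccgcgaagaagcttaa
Nrarp: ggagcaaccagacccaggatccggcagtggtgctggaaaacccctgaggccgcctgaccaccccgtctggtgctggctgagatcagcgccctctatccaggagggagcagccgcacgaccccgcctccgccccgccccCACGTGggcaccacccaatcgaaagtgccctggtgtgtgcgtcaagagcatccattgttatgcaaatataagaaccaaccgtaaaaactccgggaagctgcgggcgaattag
Lfng: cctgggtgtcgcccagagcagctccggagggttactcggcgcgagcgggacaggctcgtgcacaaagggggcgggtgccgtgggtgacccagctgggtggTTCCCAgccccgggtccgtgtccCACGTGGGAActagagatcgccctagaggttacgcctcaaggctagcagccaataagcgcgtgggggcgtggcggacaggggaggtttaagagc
In Hes1 both copies of TGGGAA read forward and start at -123 and -109. In Hes5 they start at -242 (reverse) and -98 (forward), and in Dll1 at -185 (reverse) and -82 (forward).

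Control cells expressed the pathway over a wide range of levels. Hes6 (33.7 ± 3.39 FPKM), Notch1 (28.3 ± 2.41) and Dll1 (20.8 ± 1.12) were the highest members (mean ± SD, n = 4 libraries). Nrarp (13.6 ± 0.921), Hes5 (12.4 ± 1.66) and Dll3 (10.3 ± 0.736) followed, then Hey1 (6.43 ± 1.09), Hes1 (4.68 ± 0.505), Jag1 (2.22 ± 0.173) and Notch2 (1.92 ± 0.233). In this order the ranges of Hes6 and Notch1 overlapped, as did those of Nrarp and Hes5, of Hes5 and Dll3, and of Jag1 and Notch2, while the other neighbours were apart. Among all tested genes the control level of Hes6 lay at the 80.7th percentile and that of Notch2 at the 8.59th.

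**Figure D1:**
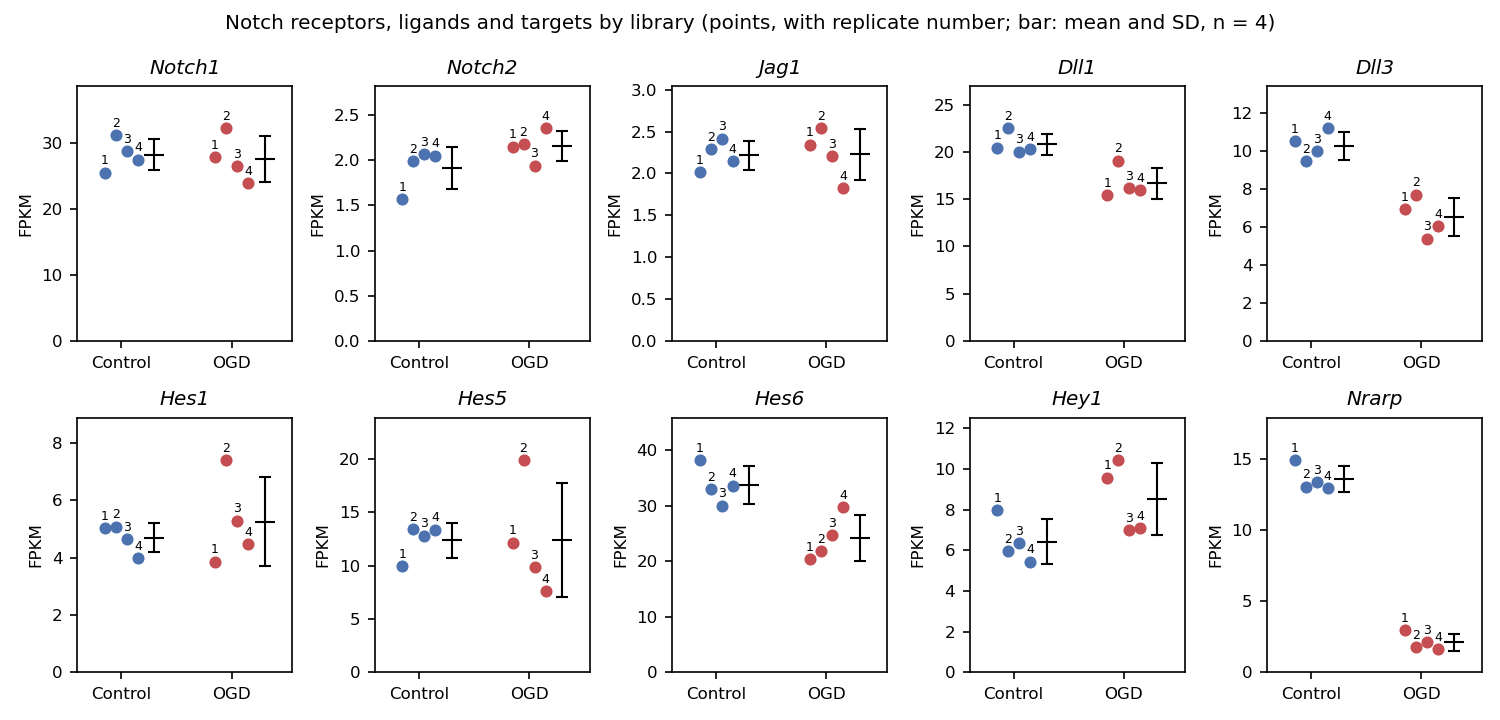
FPKM of the 10 members (vertical axes, each from 0) in the 4 control and 4 OGD libraries (points, numbered by replicate), with the mean and SD of each group as a bar. Nrarp lies at 12.9 to 14.9 FPKM in control and 1.63 to 2.98 FPKM in OGD libraries, whereas the Hes1, Hes5, Hey1, Jag1, Notch1 and Notch2 groups overlap.

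After OGD some members lay below their control range and others overlapped it. Nrarp was 6.39-fold lower, Dll3 1.58-fold, Hes6 1.40-fold and Dll1 1.25-fold lower as ratios of mean FPKM, and in these 4 genes the highest OGD value was under the lowest control value. The groups overlapped for Notch1, Notch2, Jag1, Hes1, Hes5 and Hey1, with ratios of OGD to control means from 0.977 (Notch1) to 1.32 (Hey1). In the limma fit over all genes, 4 of 10 members were past the threshold, 4 lower and 0 higher, where 49.5% of all tested genes were past it (26.8% lower, 22.7% higher). Groups that did not overlap were seen in 44.7% of all tested genes (24.1% with OGD below, 20.7% with OGD above). Because this same comparison entered the choice of the members, nothing is read from these counts and no p is given for a member. The median difference of the 10 on the log2(FPKM + 1) scale was -0.05, beside -0.04 over all tested genes.

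**Figure D2:**
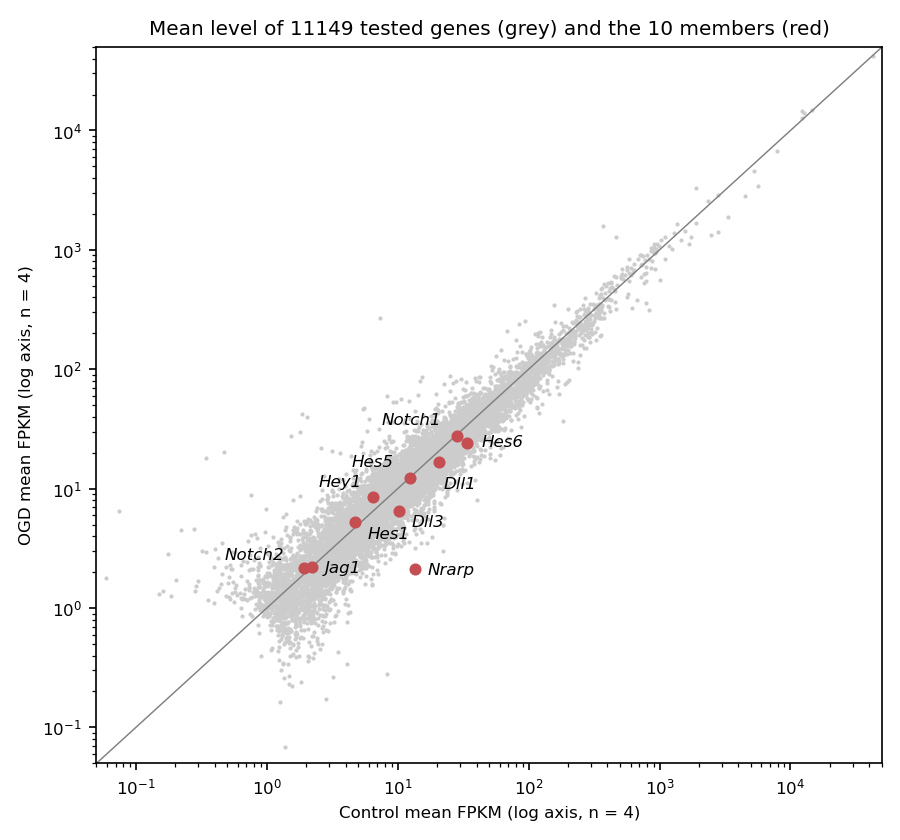
Mean FPKM in control (horizontal, log axis) against mean FPKM in OGD (vertical, log axis) for the 11149 tested genes (grey) and the 10 members (red), with the line of equal level. Nrarp lies far below the line, at 13.6 against 2.12 FPKM, while Notch1, at 28.3 against 27.7 FPKM, lies near it.

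The receptors stayed close to their control levels. Notch1 (ENSRNOG00000019322), the main receptor of the lineage, was at 25.5, 31.3, 28.8 and 27.5 FPKM in control replicates 1 to 4 and at 27.9, 32.3, 26.5 and 23.9 FPKM in OGD replicates 1 to 4. The OGD libraries lay on both sides of the control range, and the difference on the log2(FPKM + 1) scale was -0.04 ± 0.09 (SE from the limma fit, as for all differences below), with values of -0.11 to 0.03 over 17 other ways of processing. Notch2 (ENSRNOG00000018835), a second receptor, was listed at 1.57, 1.99, 2.06 and 2.05 FPKM in the control libraries and at 2.15, 2.17, 1.94 and 2.35 FPKM in those after OGD. Its groups overlapped, at a difference of 0.11 ± 0.11. Its control replicate 1 stood below the other 3, and without that library the difference was 0.05. Per length, Notch1 thus exceeded Notch2 in every library of both groups.

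Of the ligands, Jag1 did not separate the groups and the Delta-like ligands were lower. Jag1 (ENSRNOG00000007443), a ligand that activates receptors on neighbouring cells, was at 2.02, 2.29, 2.41 and 2.14 FPKM in the control libraries and at 2.34, 2.54, 2.21 and 1.82 FPKM in those after OGD, a log2 difference of 0.00 ± 0.11. Dll1 (ENSRNOG00000059984), another activating ligand, was at 20.4, 22.5, 20.0 and 20.3 FPKM in the control libraries and at 15.4, 19.1, 16.2 and 15.9 FPKM in those after OGD. All 4 OGD libraries were below the lowest control, by a margin of less than 1 FPKM for OGD replicate 2, and the log2 difference was -0.31 ± 0.08. Dll3 (ENSRNOG00000019338), a divergent ligand known for inhibiting Notch within the same cell, was at 10.5, 9.48, 9.99 and 11.2 FPKM in the control libraries and at 6.94, 7.71, 5.40 and 6.05 FPKM in those after OGD. Its groups were apart, with a log2 difference of -0.59 ± 0.11. Among all tested genes Dll3 went from the 47.5th to the 33.7th percentile, and it stayed at position 6 among the members.

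The HES and HEY repressors, the classical readout of Notch activity, were not lower together. Hes1 (ENSRNOG00000001720) was at 5.03, 5.08, 4.63 and 3.99 FPKM in the control libraries and at 3.85, 7.40, 5.29 and 4.46 FPKM in those after OGD. OGD libraries held both its lowest and its highest value, and the log2 difference was 0.11 ± 0.16. Hes5 (ENSRNOG00000013850), the repressor most tied to Notch in neural progenitors, was at 9.93, 13.4, 12.8 and 13.4 FPKM in the control libraries and at 12.2, 19.9, 9.87 and 7.63 FPKM in those after OGD. The group means were equal to 3 digits (12.4 FPKM each), but the OGD libraries ran from below the control range to well above it, and the log2 difference was -0.07 ± 0.22. Without OGD replicate 2 the differences were -0.04 for Hes1 and -0.31 for Hes5, and without OGD replicate 4 they were 0.17 and 0.12.

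Hey1 (ENSRNOG00000011593), a related repressor, was at 7.96, 5.95, 6.36 and 5.44 FPKM in the control libraries and at 9.56, 10.4, 6.98 and 7.09 FPKM in those after OGD. It was 1.32-fold higher in OGD as a ratio of means, and control replicate 1 lay above OGD replicates 3 and 4. The log2 difference was 0.35 ± 0.14, and 0.44 without that control library. Hes6 (ENSRNOG00000020194), an atypical family member that antagonises Hes1 and is not known as a direct Notch target, was at 38.2, 33.0, 30.0 and 33.6 FPKM in the control libraries and at 20.4, 21.8, 24.7 and 29.7 FPKM in those after OGD. Every OGD library lay below every control, though OGD replicate 4 came within 1 FPKM of control replicate 3, and the log2 difference was -0.47 ± 0.11. The member with the highest control level thus came second to Notch1 in OGD, where the ranges of both overlapped.

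Nrarp (ENSRNOG00000009354), the feedback inhibitor, stood apart from the other targets in size. It was at 14.9, 13.1, 13.4 and 12.9 FPKM in the control libraries and at 2.98, 1.77, 2.11 and 1.63 FPKM in those after OGD. The highest OGD value, in replicate 1, was far under the lowest control value, in replicate 4. The log2 difference was -2.24 ± 0.13, and -2.66 with a pseudocount of 0.1 in place of 1, since the added constant shrinks differences of low values. In rank this gene went from the 56.2nd percentile of tested genes in control to the 11.4th in OGD, from position 4 to position 10 among the members. In OGD its range overlapped that of Notch2, the next member above it. Between the genes beside it in the order of decreases, Lbh (-2.31) and Fam212b (-2.19), no gap separates it as a class of its own. These values chose Nrarp as a member and are a description.

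**Figure D3:**
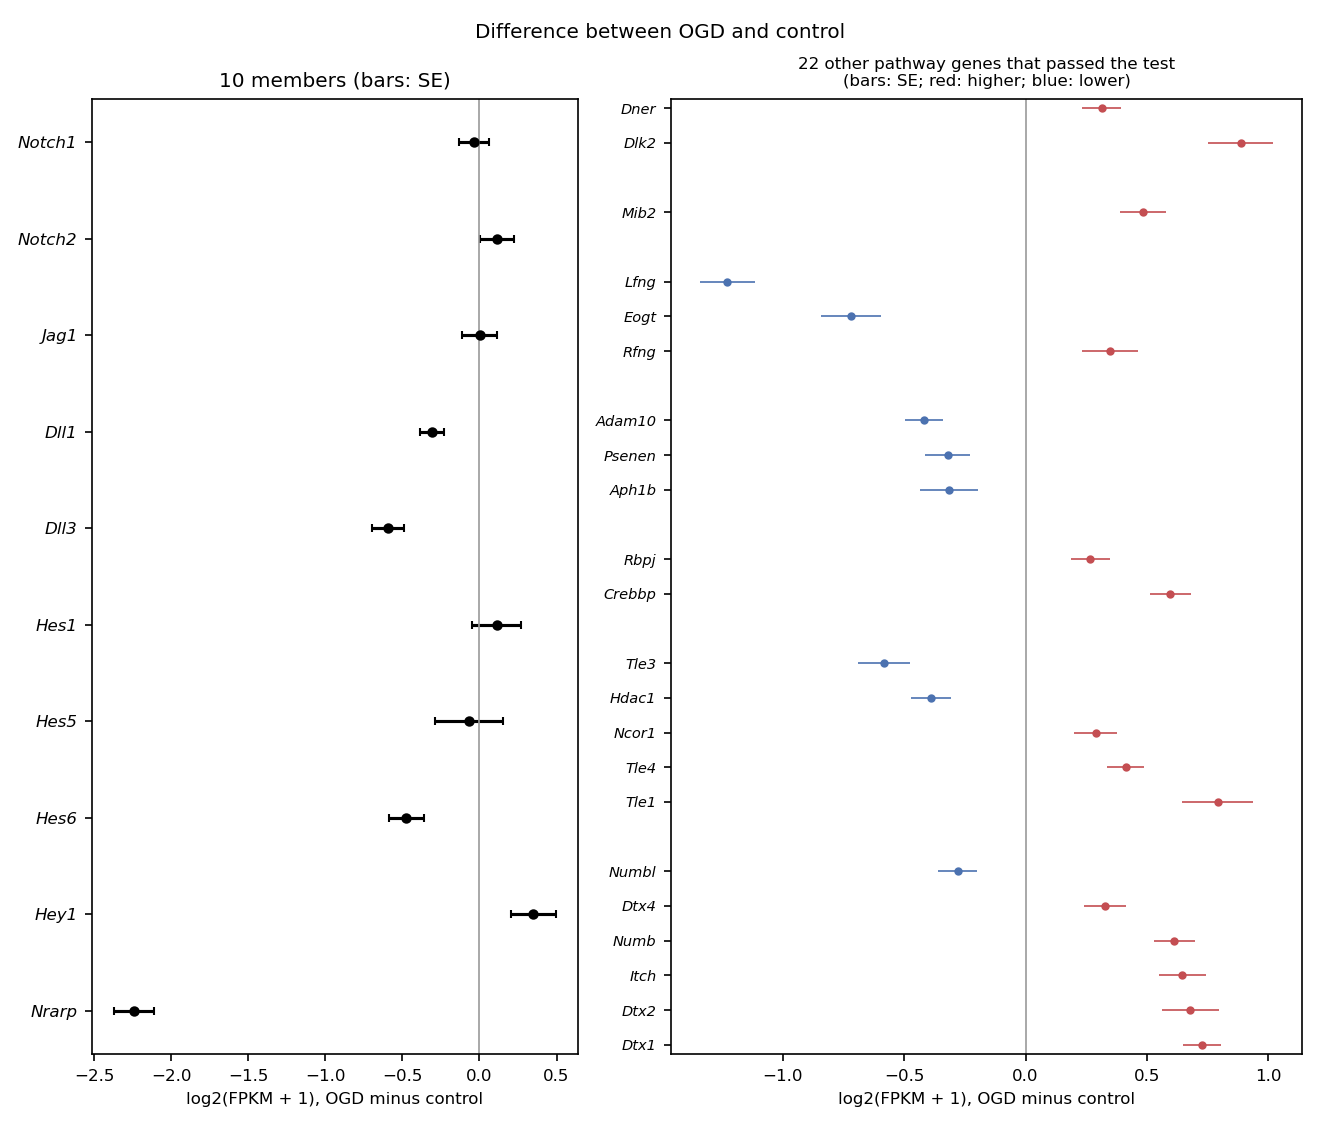
Difference between OGD and control means of log2(FPKM + 1) (horizontal axes) with standard errors, for the 10 members (left) and the 22 other pathway genes that passed the test, grouped by role (right; red higher, blue lower). On the left Nrarp lies at -2.24 and the other members between -0.59 and 0.35; on the right Lfng lies lowest at -1.23 and Dlk2 highest at 0.89.

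The members differed in how far the OGD libraries spread relative to their mean. The coefficient of variation among OGD libraries was 43.1% for Hes5, 29.5% for Hes1 and 28.5% for Nrarp, against a median of 11.4% over all tested genes. In control the same genes had values of 13.4%, 10.8% and 6.78%, against a median of 9.71%. The SD of Nrarp itself was 0.921 FPKM in control and 0.606 FPKM in OGD, at means of 13.6 and 2.12 FPKM. Hey1 (20.5% in OGD), Hes6 (17.0%), Dll3 (15.5%), Jag1 (13.6%) and Notch1 (12.6%) also lay above the OGD median, and Dll1 (9.87%) and Notch2 (7.79%) below it.

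One library, OGD replicate 2, held the highest OGD value for 7 of 10 members: Notch1, Jag1, Dll1, Dll3, Hes1, Hes5 and Hey1. Over all tested genes this library was the highest of the 4 in 25.8%. It was the lowest for 0 of 10 members, against 27.5% of all genes. OGD replicate 4 was the lowest for 4 members (Notch1, Jag1, Hes5 and Nrarp), against 29.5% of all genes. These 2 libraries also had the lowest (0.816) and the highest (1.18) relative depth, and genes of the mitochondrial genome (symbols starting with Mt-) held 30.4% and 20.4% of their summed FPKM; the part of either in the values was not tested.

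**Figure D4:**
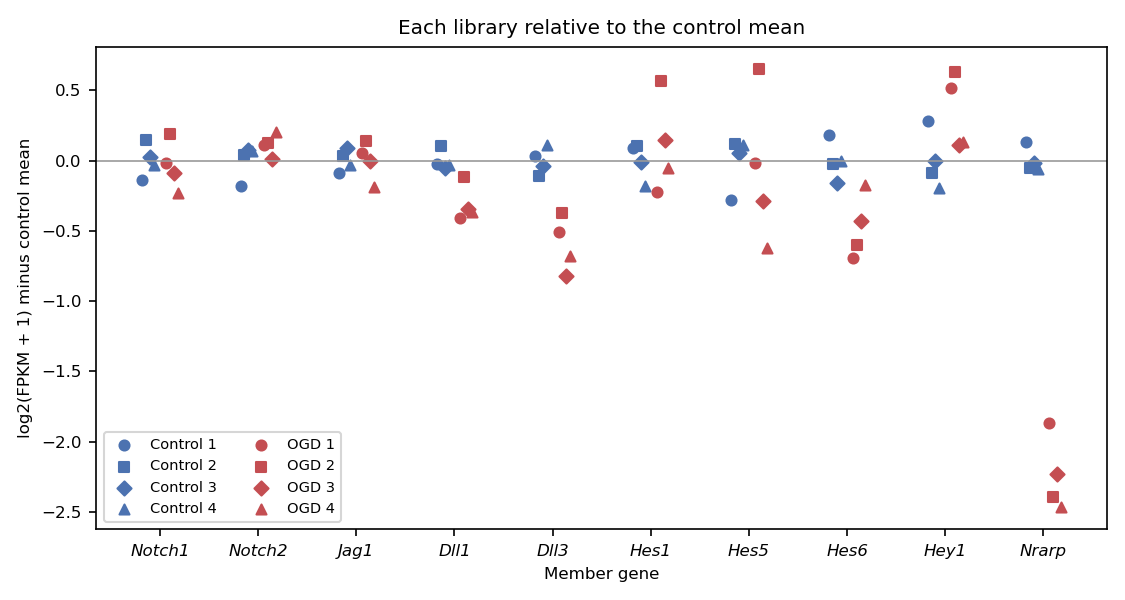
log2(FPKM + 1) of each library minus the control mean of the gene (vertical axis) for the 10 members (horizontal axis); blue marks control and red OGD libraries, with a marker shape per replicate. OGD replicate 2 (red squares) is the highest OGD library for 7 members, and all 4 OGD values of Nrarp lie at -1.87 or lower while those of Hes1 and Hes5 lie on both sides of 0.

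Over the 8 samples the 3 named genes with a profile most like that of Nrarp were Dgcr8 (Pearson r = 0.997, n = 8 samples), a cofactor of microRNA processing, Pigs (0.996), a subunit of the enzyme that attaches lipid anchors to proteins, and Cpt1a (0.996), which admits fatty acids to mitochondria. Mean levels went from 9.85 to 3.34, from 17.5 to 10.5 and from 3.13 to 1.52 FPKM. In all, 438 genes had an r above 0.95; an r over both groups carries the step between them.

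The rest of the pathway was read from a list of 71 genes by role, of which 70 had a row and 58 were tested. By limma 14 rose, 8 fell and 36 did not pass, that is 37.9% past the threshold against 49.5% of all tested genes, and their median log2 difference was -0.01. Groups were apart for 23 of these 58 genes, 13 with OGD above and 10 with OGD below. Over all tested genes they were apart in 44.7% (20.7% above, 24.1% below). Lfng and Eogt are among both the 8 falls and the 10 with OGD below. These 2 genes passed the filter through their control libraries, so their part in the counts is a description. Counts of rises and falls by role below stand beside 22.7% higher and 26.8% lower over all tested genes. The list was written with earlier results of these data known. Genes named below beyond the smallest p of each role were named after their values had been seen.

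Among other receptors and ligands, Notch3 and Notch4 lay below the filter, at 0.597 ± 0.0641 and 0.367 ± 0.130 FPKM for Notch3 and at 0.189 ± 0.0462 and 0.0925 ± 0.0350 FPKM for Notch4 in control and OGD (SD, n = 4 each). Of 6 tested ligands 2 rose and 0 fell. Dlk2, a non-canonical ligand of the Delta family, rose from 3.83, 3.54, 2.80 and 2.58 FPKM to 8.15, 6.98, 6.31 and 5.53 FPKM (log2 difference 0.89 ± 0.13, limma adjusted p = 0.000348). Dner, a neuronal Delta-like ligand, rose from 29.6 ± 2.62 to 37.0 ± 2.83 FPKM (0.31 ± 0.08, limma adjusted p = 0.00776). Both moved opposite to Dll1 and Dll3. Cntn1, an adhesion protein known to act on Notch of precursor cells, was at 311.6 ± 27.5 and 349.9 ± 12.3 FPKM and did not pass (limma adjusted p = 0.0787).

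Dll4, an activating ligand best known from vessel sprouting, was below the filter but apart between groups. It was listed at 0.0327, 0.0316, 0.0294 and 0.0307 FPKM in the control libraries and at 0.774, 0.400, 0.657 and 0.831 FPKM in those after OGD. Multiplied by relative depth, the 4 control values were equal to within 1% and the OGD values were 22.0, 10.0, 22.9 and 30.0 times the control step, so the control libraries rest on the same very small number of fragments. With no filter on low values Dll4 passed (limma adjusted p = 0.000466), the only 1 of the 12 genes below the filter to do so. Of the endothelial and mural markers, mean FPKM in control and OGD was 0.0468 and 0.0940 for Tek and 0.110 and 0.0992 for Kdr. It was 0.0899 and 0.0332 for Cdh5 and 0.0177 and 0.0119 for Pdgfrb, and Cldn5 and Rgs5 were at 0. Which cells the Dll4 fragments came from was not tested.

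Of 5 tested glycosyltransferases, enzymes that add sugars to Notch, 2 fell and 1 rose. Lfng, which lengthens O-fucose on the receptor, alters its choice of ligand and is itself a known Notch target, fell from 3.56, 3.31, 3.47 and 3.21 FPKM to 0.939, 0.624, 1.02 and 0.925 FPKM (-1.23 ± 0.11, limma adjusted p = 1.43e-05). Eogt, which adds O-GlcNAc to extracellular EGF repeats, fell from 1.91, 2.42, 2.15 and 2.31 FPKM to 0.768, 0.947, 0.837 and 1.25 FPKM (-0.72 ± 0.12, limma adjusted p = 0.000805). Both passed the filter through their control libraries, as only 1 OGD library of each reached 1 FPKM. Their falls and p-values are thus a description, and the count of 2 falls cannot be set against the rise. Rfng, a second Fringe enzyme, rose from 16.4 ± 2.04 to 21.3 ± 3.24 FPKM, with overlapping groups; it did not pass in 6 of 17 other ways of processing, without control replicate 2, 3 or 4 (limma adjusted p = 0.0651, 0.0741 and 0.0629), without OGD replicate 2 or 4 (0.0723 and 0.0616) and with no filter (0.0534).

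Of 9 genes for the cleaving proteases 3 fell and 0 rose. Adam10, which makes the extracellular cut, fell from 23.5, 30.0, 26.4 and 27.1 FPKM to 19.2, 20.4, 19.8 and 19.3 FPKM (-0.42 ± 0.08, limma adjusted p = 0.00119). Psenen, a gamma-secretase subunit, fell from 77.9 ± 9.63 to 62.0 ± 5.38 FPKM (-0.32 ± 0.09, limma adjusted p = 0.0152), and Aph1b, another subunit, was the third, from 2.80 ± 0.475 to 2.04 ± 0.131 FPKM. The call of Aph1b was lost in 13 of 16 other ways of processing, among them every omission of a single library but control replicate 3 (limma adjusted p 0.0219 to 0.137 over the 16). Psen2, a catalytic subunit, did not pass, at 0.33 ± 0.16 on the log2 scale. Of 4 ubiquitin ligases that act on ligands, Mib2 rose from 8.69, 7.65, 8.43 and 8.23 FPKM to 13.3, 13.1, 11.4 and 10.1 FPKM (0.48 ± 0.10, limma adjusted p = 0.00183) and the others did not pass. Neurl1, at 4.11 ± 1.26 and 3.14 ± 0.617 FPKM, passed only when control replicate 1 was left out, alone (limma adjusted p = 0.0238) or with OGD replicate 4 (0.0304).

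In the nucleus, 2 of 8 tested genes of the activating complex rose and 0 fell. Rbpj, the DNA-binding partner of cleaved Notch, was at 22.7, 28.1, 26.5 and 26.9 FPKM in the control libraries and 28.5, 31.7, 33.6 and 32.2 FPKM in those after OGD (0.27 ± 0.08, limma adjusted p = 0.0186); it did not pass without OGD replicate 3 (limma adjusted p = 0.0523) or without both control replicate 1 and OGD replicate 4 (0.0652). Crebbp, an acetyltransferase used by many transcription factors, rose from 12.9 ± 1.02 to 20.1 ± 1.69 FPKM (limma adjusted p = 0.000223). Of 15 corepressor genes 3 rose, 2 fell and 10 did not pass. The Groucho family, which HES proteins recruit, split: Tle1 rose from 2.01 ± 0.207 to 4.28 ± 1.04 FPKM and Tle4 from 22.2 ± 1.69 to 29.8 ± 1.98 FPKM (limma adjusted p = 0.00111 and 0.00110), while Tle3 fell from 27.2 ± 0.520 to 18.0 ± 3.10 FPKM. The third rise was Ncor1 and the other fall Hdac1; leaving out control replicate 1 ended the call of Ncor1 (limma adjusted p = 0.0504), as did leaving out replicate 1 or 2 of the OGD group (0.0518 and 0.0513).

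Of 10 tested cytoplasmic regulators 5 rose and 1 fell (Numbl). Together 60% were past the threshold, beside 49.5% of all tested genes (22.7% higher, 26.8% lower). Dtx1, a Deltex ubiquitin ligase that binds the Notch intracellular domain, rose from 9.00, 8.87, 9.00 and 9.00 FPKM to 15.3, 16.9, 16.2 and 13.9 FPKM (0.73 ± 0.08, limma adjusted p = 3.34e-05). Numb, an inhibitor that sends Notch to degradation, rose from 6.04, 5.28, 6.11 and 5.80 FPKM to 8.43, 10.0, 9.79 and 9.46 FPKM (0.61 ± 0.09, limma adjusted p = 0.000215). Dtx2, Dtx4 and the ubiquitin ligase Itch were the other 3, with log2 differences of 0.68, 0.33 and 0.65. In all 5 the lowest OGD value exceeded the highest control value, as it did in 20.7% of all tested genes.

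**Figure D5:**
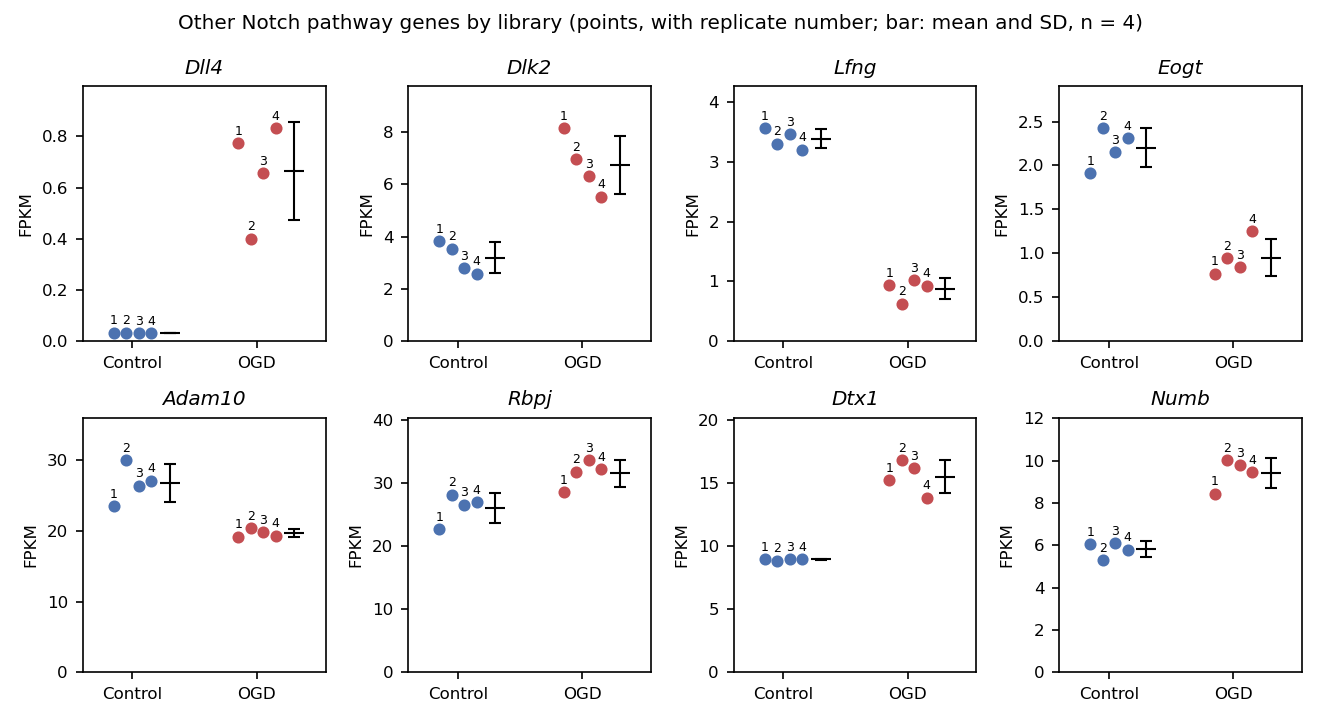
FPKM of 8 pathway genes outside the members (vertical axes, each from 0) in the 4 control and 4 OGD libraries (numbered points), with the mean and SD of each group as a bar. Dll4, Dlk2, Rbpj, Dtx1 and Numb lie higher in every OGD library than in any control library, and Lfng, Eogt and Adam10 lower.

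None of the 6 other HES and HEY genes reached the filter; Hes2 and Helt were listed at 0 in all 8 samples and Hes7, the highest, was at 0.583 ± 0.429 and 0.596 ± 0.353 FPKM. Neurog2 and Atoh1, proneural factors that HES proteins are known to repress, lay below the filter and were listed at 0 in all control libraries. After OGD, Neurog2 was at 0.278 and 0.397 FPKM in replicates 2 and 3 and at 0 in replicates 1 and 4. Atoh1 was at 0.0914 FPKM in OGD replicate 2 and at 0 in OGD replicates 1, 3 and 4.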

How the data were processed

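Total RNA from all 8 samples went into strand-specific libraries, per the labels' protocols. Per the file headers, the authors deposited FPKM values, 1 row for each gene. Trimmomatic, FastQC and the builds rn6 and Rnor_6.0 are named in the submitters' processing notes; no source used here names the aligner, the quantifier, the annotation or whether strand was used. FPKM holds no counts, and a change in abundant genes shifts all others.

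Samples were grouped by title. log2(FPKM + 1) was fitted for 11149 genes (in 4 or more samples a value of 1 FPKM or more) with limma 3.58.1 (R 4.3.3, trended empirical Bayes, group only) and adjusted by Benjamini-Hochberg over all of them (threshold 0.05), tested on simulated data. No p is given for members, since this contrast entered their choice. Members and lists were chosen with earlier results of these data known.

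Named were all members, every tested gene of roles with at most 3, otherwise the 2 with the smallest p per role, the 3 genes most like Nrarp, and the 2 most abundant markers of each list. Some genes that this rule names are not reported here. Maml3, Itgam and Pecam1 matched no row; of 2 Rbpj rows the higher was used. Zeros can be failed estimates. No 2 samples were identical. Relative depth came from genes of at most 0.5 FPKM, 75.9% to 79.0% of whose ratios to control replicate 1 were whole-number ratios within 0.01 on the log2 scale. Alternatives were another pseudocount, filter, scaling or trend, a replicate block and left-out samples. Start regions came from RefSeq (GRCr8). Tables used pandas 2.3.3 and numpy 2.4.6 in Python 3.11.15; plots used matplotlib 3.10.9.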

Additional observations from a re-analysis of the deposited data

Results flagged for a closer look

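In 3 of 50 groups of 4 libraries checked (10 members and 15 pathway genes, control and OGD), a single value lay far outside the rest; by chance about 1 in 20 groups would. Notch2 was at 1.57 FPKM in control replicate 1 and at 1.99 to 2.06 FPKM in the other controls. Dll1 was at 22.5 FPKM in control replicate 2 and at 20.0 to 20.4 FPKM in the others, and without that library its log2 difference was -0.27 in place of -0.31. Dtx1 was at 8.87 FPKM in control replicate 2, where the other 3 controls lay within 0.01 FPKM of 9.0.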

How the results depend on the processing

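Over 17 alternatives, counts of genes past the limma threshold stayed within 1.5 times the reported ones: 2123 to 2728 of all genes higher (2527 reported) and 2337 to 3245 lower (2992), 12 to 16 of the other pathway genes higher (14) and 6 to 11 lower (8; 11 without control replicate 1). Of the 22 pathway calls, 18 passed in every alternative that kept the gene, and Rfng, Aph1b, Rbpj and Ncor1 did not. Lfng and Eogt, among these 18, passed the filter of the reported fit through their control libraries, so their calls are a description. The median of the other pathway genes lay on either side of 0. Nrarp, Dll3, Hes6 and Dll1 were lower, and Hey1 and Notch2 higher, in every alternative that kept them, whereas Notch1, Jag1, Hes1 and Hes5 changed sign, each within its spread. A filter of 5 FPKM left no value for Notch2 and Jag1. The 4 lower members were past the threshold in all 17. Hey1 joined them with the replicate block, and when replicate 3 or 4 of the OGD group was dropped. It also did so when control replicate 1 was dropped, alone or together with OGD replicate 4. Why the call of Hey1 changed was not tested. The alternatives reuse the same samples, and this contrast entered the choice of the members. Calls on members are thus a description, and nothing is read from them. In the reported fit 49.5% of all tested genes were past the threshold.

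With the replicate number as a block, 14 pathway genes were higher and 7 lower, and 2497 and 3012 of all genes. The deviations of same-numbered samples correlated at -0.222, 0.163, 0.011 and 0.09 over tested genes, above 0.1 in 1 of 4 pairs, so the numbers were not taken as pairs. Depth limits Dll4, Notch4 and other genes near 0 most; no interval from counts could be made.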

Other observations

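The letters CACNAG, the N-box bound by HES repressors, were searched on both strands of the same start windows. They stood at 4 positions in the window of Hes1, which is known to repress itself, at 4 in that of Notch1, at 2 in that of Nrarp and at 1 in that of Hes6, and at 0 in those of Notch2, Jag1, Dll1, Dll3 and Hes5. Of all 33469 windows, 37.2% held at least 1, and of the windows of tested genes 35.2%. Such a match is a description of the letters and not a binding site.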
